A study of Mus musculus with 6 samples.

Results

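The machinery that fuses, divides and moves mitochondria was examined in RAW264.7 macrophages through 10 genes, picked by symbol from the deposited table and all found there, each as a single entry. They comprise 3 fusion genes (Mfn1, Mfn2, Opa1), 5 fission genes (Dnm1l, Fis1, Mff, Mief1, Mief2) and 2 transport genes (Rhot1, Rhot2), out of 11708 genes that were expressed highly enough to be tested. RAW264.7 is a mouse macrophage line that arose from a virus-induced tumour, so both groups stem from 1 established line. In the C/D group, cells were grown with a hydrogel composite (GelMA/PEDOT:PSS+PLLA/PDA, where GelMA is methacryloyl gelatin and PEDOT:PSS a conducting polymer blend) and exposed to ultrasound at 48 kHz for 5 min. In the Gel/S group, the control, cells were grown with GelMA alone and left static. Both cultures lasted 3 d, and mRNA of 3 libraries per group was sequenced. The composite and the ultrasound were applied together, so their effects cannot be told apart. In the table, columns that carry US were read as C/D and those that carry GEL as Gel/S, and every direction given here rests on that reading.

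Mitochondria form a network that is kept in balance by large GTPases. The mitofusins Mfn1 and Mfn2 join outer membranes and Opa1 joins inner membranes and shapes cristae. Division is carried out by the dynamin Dnm1l, which is recruited from the cytosol by the outer membrane proteins Mff, Mief1 and Mief2, while Fis1 is a further outer membrane protein with a part in fission. Rhot1 and Rhot2 encode the Miro GTPases, which couple mitochondria to microtubule motors, and Rhot1 has been linked to the passage of mitochondria between cells. The title of the series names mitochondrial transfer and mitochondrial metabolism.

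Of these genes, 9 did not pass the test between C/D and Gel/S. Mief2 passed it, being 1.34-fold higher in C/D (log2 fold change 0.42, SE 0.123, adjusted p = 0.0262, edgeR quasi-likelihood test with Benjamini-Hochberg adjustment over all 11708 genes). Thus 1 of 10 genes rose and 0 fell, whereas across all tested genes 13.1% rose and 13.9% fell, together 27.0%. At an unadjusted p under 0.05 the count was 3 of the 10, namely Mfn2, Mief2 and Rhot2, against 41.0% of all tested genes, and DESeq2 called 1 gene risen and 0 fallen. Leaving out Gel/S 1, which stands apart below, again gave 1 risen and 0 fallen, leaving out Gel/S 2 gave 3 risen (Mief2, Fis1, Rhot2) and 1 fallen (Mfn2), and leaving out any other library gave 0 of each. With limma on TPM, where libraries are rescaled to 1 total and the median of all genes shifts to −0.12, 633 genes rose and 1510 fell, against 1532 and 1631 here. By role, 0 of 3 fusion genes, 1 of 5 fission genes and 0 of 2 transport genes passed. The median log2 fold change was −0.16 for fusion, 0.11 for fission and 0.15 for transport, beside 0.0072 for all genes tested. In size, the differences had a median of 0.14 for the 10 genes, against 0.24 for all genes tested, at similar median standard errors (0.109 and 0.117). For the 9 genes that did not pass, the 95% intervals ran at the widest from 0.66-fold to 1.51-fold, so changes of 2-fold lay outside every one of them. These are bulk values, in which fewer cells expressing a gene and less of its RNA per cell cannot be told apart.

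**Figure D1:**
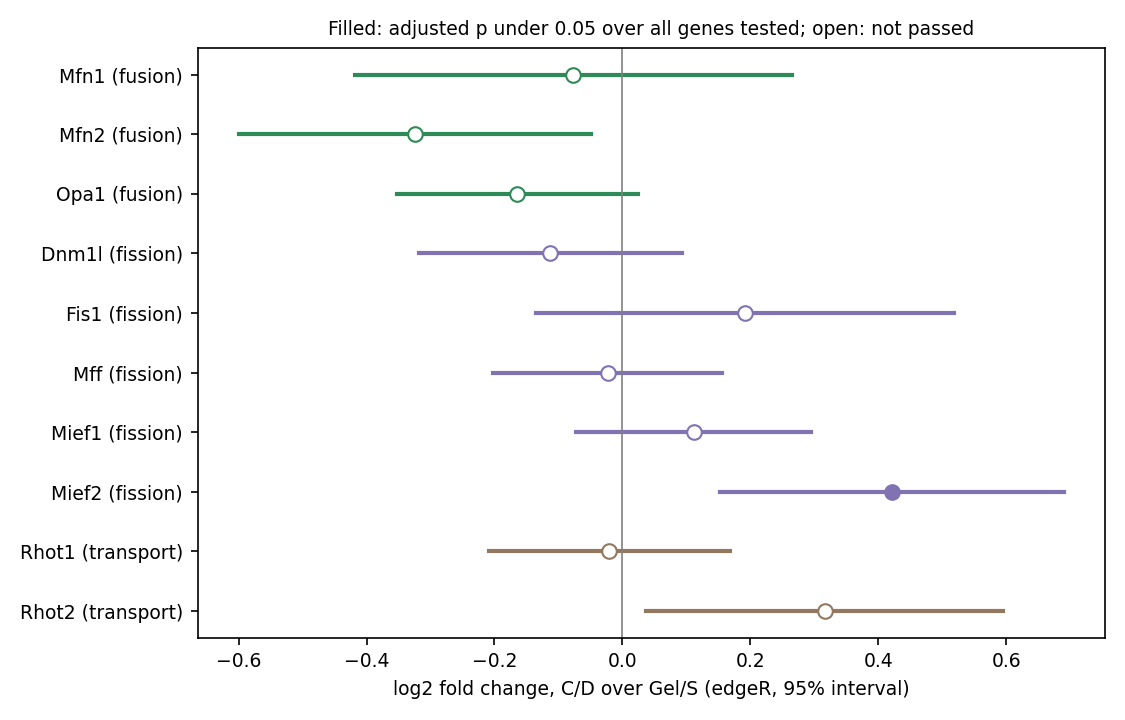
log2 fold change of each of the 10 genes, C/D over Gel/S, from edgeR (circles) with its 95% interval (lines), coloured by role. The filled circle is Mief2 at 0.42, the only gene past an adjusted p of 0.05, and the intervals of Mfn2 and Rhot2 also lie to 1 side of 0.

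The libraries differed in content. Total counts were 12818831 to 15802627 in C/D and 15579679 to 16525699 in Gel/S, and the mitochondrial genome took 9.17% to 10.4% of the counts in C/D and 5.59% to 9.02% in Gel/S, lowest in Gel/S 1. Macrophage markers were present in every library (summed FPKM of 10 genes 11021 to 11190 in C/D and 13540 to 14141 in Gel/S, with 1 of 9 tested markers fallen). FPKM denotes counts divided by gene length and by a scaled library total. Of 8 osteoclast markers 4 were tested, 1 rose and 1 fell (summed FPKM 46.1 to 51.7 in C/D and 56.0 to 57.7 in Gel/S), with Calcr at 0. Of 8 stromal and 6 lymphocyte markers none reached the level for testing, with summed FPKM of 0.713 to 0.777 (C/D) and 0.768 to 0.923 (Gel/S) for the stromal and 0.431 to 0.663 (C/D) and 0.253 to 0.53 (Gel/S) for the lymphocyte list, and Col1a2, Col3a1, Dcn, Thy1, Lum, Ms4a1 and Nkg7 were at 0. The part of these differences in the results below was not tested. Nothing in the labels says that the replicates are separate cultures, so p-values measure only how far these libraries scatter, which may be technical.

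Fis1 was the most abundant of the 10 genes in both groups. Levels are given as FPKM, which is per length and so allows genes to be set side by side. Fis1 averaged 39.8 ± 3.67 FPKM in C/D and 35.8 ± 8.24 FPKM in Gel/S (SD, n = 3 each, as for all means below), and Dnm1l came next at 15.1 ± 1.75 in C/D and 16.8 ± 0.647 in Gel/S. Both stood apart from all genes below them in both groups. The other 8 genes lay between 3.85 and 7.76 FPKM in C/D and between 3.18 and 8.98 FPKM in Gel/S, with Rhot2 lowest in each. In C/D, Rhot1, Opa1, Mfn2 and Mief1 followed Dnm1l in that order, and neighbours in that run overlapped in their ranges, as did Mff, Mief2 and Mfn1 further down. In Gel/S the order was Mfn2, Opa1, Rhot1, then Mief1, Mff and Mfn1, then Mief2 and Rhot2. Mief2 thus overlapped in range with Mff and Mfn1 in C/D, while in Gel/S every library placed it below every library of those genes. Among all tested genes, mean levels ranged from percentile 27.0 (Rhot2) to percentile 88.2 (Fis1).

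**Figure D2:**
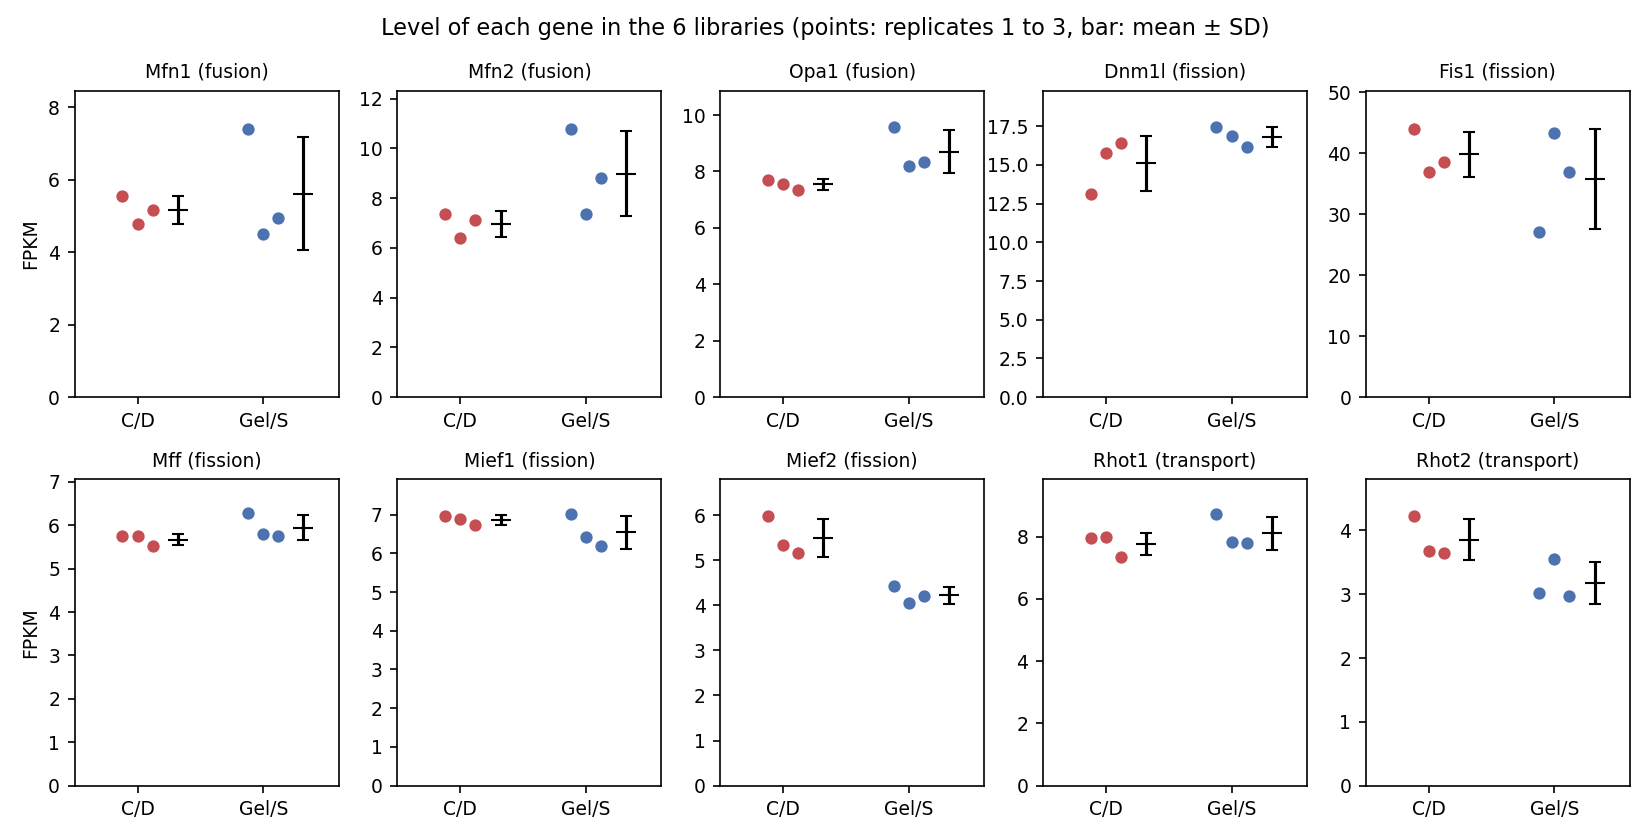
FPKM (vertical axes, from 0, each panel on its own scale) of the 10 genes in C/D (red, left) and Gel/S (blue, right), with 1 point for each of 3 libraries and a black bar for the mean ± SD. C/D and Gel/S do not overlap for Mief2, Rhot2, Mfn2 and Opa1, and Gel/S 1, the leftmost blue point, stands high for Mfn1 and Mfn2 and low for Fis1.

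Of the fusion genes, none passed. Mfn2, which besides fusion tethers mitochondria to the endoplasmic reticulum (chromosome 4, 147873599 to 147904704, minus strand, GRCm38), had 7.36, 6.39 and 7.13 FPKM in C/D 1 to 3, against 10.8, 7.36 and 8.80 FPKM in Gel/S 1 to 3. Every C/D library was below every Gel/S library, but C/D 1 and Gel/S 2 were all but equal. Its log2 fold change was −0.32 (SE 0.126, 95% interval −0.60 to −0.05, edgeR adjusted p = 0.0753). The call turned on the setting. Mfn2 passed without a filter on low levels (−0.37, adjusted p = 0.00935) and without Gel/S 2 (−0.44, adjusted p = 0.00716), and it stood at −0.18 (adjusted p = 0.204) without Gel/S 1, the library with the highest value, within a range of 0.00716 to 0.240 over 16 alternatives. The authors' deposited table gives Mfn2 an adjusted p of 0.0471 and a log2 ratio of 0.37 for Gel/S over C/D.

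Opa1, the inner membrane fusion GTPase (chromosome 16, 29579334 to 29654884, plus strand), had 7.70, 7.56 and 7.34 FPKM in C/D 1 to 3, against 9.59, 8.19 and 8.33 FPKM in Gel/S 1 to 3. The groups did not overlap, and Gel/S 1 was again highest. The log2 fold change was −0.16 (SE 0.0866, edgeR adjusted p = 0.174) and passed under none of 16 alternatives. It was −0.098 without Gel/S 1 and −0.28 on TPM. Mfn1, the other mitofusin (chromosome 3, 32529465 to 32579239, plus strand), had 5.56, 4.78 and 5.15 FPKM in C/D 1 to 3, against 7.39, 4.50 and 4.96 FPKM in Gel/S 1 to 3. Its groups overlapped, with Gel/S 1 far above the other 5 libraries. The difference of −0.08 on the log2 scale (SE 0.157, edgeR adjusted p = 0.741) turned to 0.16 (adjusted p = 0.286) without Gel/S 1, so the sign of the Mfn1 difference rests on that library.

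Mief2 was the fission gene that rose. It encodes an outer membrane adaptor that recruits the dynamin Dnm1l (chromosome 11, 60728398 to 60732951, plus strand). Counts were 211, 233 and 211 in C/D 1 to 3, against 192, 177 and 177 in Gel/S 1 to 3, although 2 of the 3 C/D libraries had lower totals than any Gel/S library. In FPKM this made 5.97, 5.33 and 5.16 in C/D 1 to 3, against 4.42, 4.04 and 4.19 in Gel/S 1 to 3. All 3 C/D libraries lay above all 3 Gel/S libraries, with C/D 1 highest. The 95% interval of the log2 fold change was 0.15 to 0.69, or 1.11-fold to 1.61-fold, and its p ranked 2293 of 11708. The sign held in all 16 alternatives, the call in 10. It was lost on leaving out C/D 1 (0.35, adjusted p = 0.0902), C/D 2 (0.44, 0.0671), C/D 3 (0.47, 0.0511) or Gel/S 3 (0.41, 0.0865), without a filter on low levels (0.37, 0.0653), and with limma on TPM (0.26, 0.146). The authors' deposited table gives Mief2 an adjusted p of 0.0853 with a log2 ratio of −0.38 for Gel/S over C/D, so the calls for Mfn2 and Mief2 are the reverse of those made here while the directions are the same.

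The other fission genes did not pass. Mief1, the paralog of Mief2 with the same kind of role (chromosome 15, 80234018 to 80253371, plus strand), had 6.97, 6.89 and 6.73 FPKM in C/D 1 to 3, against 7.03, 6.42 and 6.19 FPKM in Gel/S 1 to 3. The groups overlapped, since Gel/S 1 had the highest value of all (difference 0.11 on the log2 scale, SE 0.0844, edgeR adjusted p = 0.341, with 0.071 without Gel/S 3 and −0.020 on TPM). Mff, the receptor regarded as the main recruiter of Dnm1l in many cells, stood at 5.67 ± 0.133 FPKM in C/D and 5.94 ± 0.289 in Gel/S, with an interval of −0.20 to 0.16 on the log2 scale and a sign that turned after the length correction (0.016) or without Gel/S 1 (0.0092). Dnm1l itself had 13.1, 15.8 and 16.4 FPKM in C/D 1 to 3, against 17.4, 16.9 and 16.1 in Gel/S 1 to 3. C/D 1 was the lowest library and the groups overlapped. It differed by −0.11 on the log2 scale (SE 0.0945, edgeR adjusted p = 0.392), by −0.025 without C/D 1, by −0.17 without C/D 3 and by −0.25 on TPM. Fis1 had 43.9, 36.9 and 38.5 FPKM in C/D 1 to 3, against 27.0, 43.4 and 37.0 in Gel/S 1 to 3. Gel/S 1 was far below the other 5 libraries, and the difference of 0.19 on the log2 scale (SE 0.150, edgeR adjusted p = 0.357) was 0.018 without Gel/S 1 and 0.36 (adjusted p = 0.0438) without Gel/S 2. Gel/S 1, in which the mitochondrial genome took the smallest share of counts, thus held the highest Mfn1 and Mfn2 and the lowest Fis1 of the 6 libraries. In FPKM it also held the highest Opa1, Rhot1, Dnm1l, Mff and Mief1, so fission genes did not go 1 way in it. A link to the share of the mitochondrial genome was not tested.

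The Miro genes of mitochondrial transport did not pass either. Rhot2 (chromosome 17, 25838457 to 25844851, minus strand) had 4.22, 3.68 and 3.65 FPKM in C/D 1 to 3, against 3.01, 3.56 and 2.97 FPKM in Gel/S 1 to 3. The groups did not overlap, and Gel/S 2 came close to C/D 2 and C/D 3. Its log2 fold change was 0.32 (SE 0.128, 95% interval 0.04 to 0.60, edgeR adjusted p = 0.0850). It passed without Gel/S 2 (0.41, adjusted p = 0.0330) and with limma after a correction for gene length (0.36, adjusted p = 0.0484), within a range of 0.0330 to 0.312 over 16 alternatives. Rhot2 shares 81 bases with Wdr90 on the same strand, a gene with 311, 374 and 339 counts in C/D 1 to 3 and 488, 500 and 413 in Gel/S 1 to 3 (log2 fold change −0.30, edgeR adjusted p = 0.0524). It shares 3307 bases with Gm20683, a protein-coding gene on the same strand listed with 0 counts in every library. It also lies within Gm26694, a lincRNA on the opposite strand with 10, 5 and 7 counts in C/D 1 to 3 and 20, 23 and 18 in Gel/S 1 to 3. The part of reads shared with these genes was not tested. Rhot1 (chromosome 11, 80209019 to 80267907, plus strand) had 7.95, 7.98 and 7.36 FPKM in C/D 1 to 3, against 8.73, 7.82 and 7.78 FPKM in Gel/S 1 to 3. These overlapped, at a difference of −0.020 on the log2 scale (SE 0.0863, edgeR adjusted p = 0.881, 95% interval −0.21 to 0.17) that turned after the length correction (0.025) and without C/D 3 (0.019) or Gel/S 1 (0.027).

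In all, FPKM values of C/D and Gel/S did not overlap for 4 of the 10 genes, Mief2 and Rhot2 above and Mfn2 and Opa1 below, where 46.2% of all tested genes did not overlap (19.1% above, 27.1% below). The spread within Gel/S was wide for Mfn1, Fis1 and Mfn2, with coefficients of variation of 27.6%, 23.0% and 19.1%, against 7.54%, 9.22% and 7.24% for these genes in C/D. For Mff it was 2.35% in C/D and 4.87% in Gel/S.

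Within each of 3 pairs of paralogs, the ratio of levels did not overlap between the groups, as was also the case for 43.7% of all pairs among 11588 tested genes with a value above 0 in every library. A ratio of 2 genes inside a library does not depend on how libraries are scaled to each other. It can still depend on gene length, which differs inside pairs (Mief2 2716 and Mief1 8106 bases). After the length correction, log2 fold changes were 0.40 (Mief2) and 0.16 (Mief1), 0.36 (Rhot2) and 0.025 (Rhot1), −0.26 (Mfn2) and −0.0048 (Mfn1). Without it they were 0.42 and 0.11, 0.32 and −0.020, and −0.32 and −0.08. Mief2 stood at 0.857, 0.774 and 0.768 of the Mief1 level in C/D 1 to 3, against 0.630, 0.630 and 0.677 in Gel/S 1 to 3, a difference of 0.31 on the log2 scale. Rhot2 stood at 0.531, 0.461 and 0.496 of the Rhot1 level in C/D 1 to 3, against 0.345, 0.455 and 0.382 in Gel/S 1 to 3, a difference of 0.34. Here C/D 2 and Gel/S 2 nearly met. Mfn2 stood at 1.32, 1.34 and 1.38 times the Mfn1 level in C/D 1 to 3, against 1.46, 1.64 and 1.77 times in Gel/S 1 to 3, a difference of −0.26. In all 3 pairs every C/D library lay on 1 side of every Gel/S library. A 2-sided exact permutation test gave p = 0.1 for each pair, also after adjustment over the 3 pairs, which is the smallest value this test can give for 3 against 3 samples, so it cannot reach 0.05 for any pair. Without any 1 library in turn, the differences kept their sign and ranged from 0.26 to 0.34 for Mief2 over Mief1, from 0.25 to 0.45 for Rhot2 over Rhot1 and from −0.34 to −0.20 for Mfn2 over Mfn1. For Mfn2 over Mfn1, Gel/S 1 had the Gel/S ratio nearest to C/D, and the difference without it was −0.34.

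**Figure D3:**
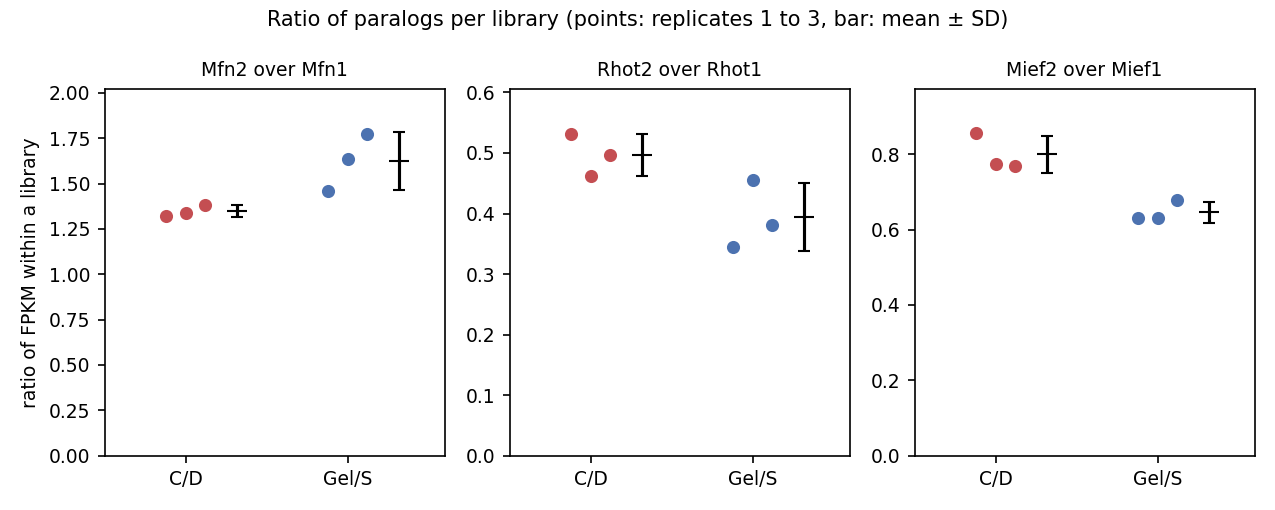
Ratio of FPKM between paralogs inside each library (vertical axes, from 0) for Mfn2 over Mfn1, Rhot2 over Rhot1 and Mief2 over Mief1, in C/D (red, left) and Gel/S (blue, right), with 1 point per library and a bar for the mean ± SD. The points of the groups do not overlap in any panel: C/D lies lower for Mfn2 over Mfn1 and higher for the other pairs, and 43.7% of all pairs of tested genes do not overlap either.

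Promoter sequence is shown for the Mief and Mfn pairs, whose ratios are described above. The windows reach from 250 bases before to 50 bases after a RefSeq start site (GRCm38.p6), and where RefSeq lists several starts for a gene the one nearest to the start in the deposited table was taken. All 10 genes had such a window. For Rhot2 and Dnm1l the RefSeq start lay 326 and 72 bases from the start in the deposited table, which fell outside the window. Capitals mark matches, on either strand, to letters searched for 6 factors or elements: GCGCATGCG (core of the NRF1 site), TCAAGGTCA (ERR), CCGGAAGT (ETS and GABP), CACGTG (E-box), TGACGTCA (CRE) and GGGCGG (GC box).
Mief2 (chr11:60728148-60728447, plus strand): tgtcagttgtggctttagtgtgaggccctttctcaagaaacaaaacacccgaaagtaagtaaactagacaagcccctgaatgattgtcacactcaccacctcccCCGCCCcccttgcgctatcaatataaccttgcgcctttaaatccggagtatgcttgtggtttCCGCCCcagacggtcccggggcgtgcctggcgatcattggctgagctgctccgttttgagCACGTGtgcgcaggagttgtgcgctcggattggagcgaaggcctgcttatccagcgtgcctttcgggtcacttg
Mief1 (chr15:80233830-80234129, plus strand): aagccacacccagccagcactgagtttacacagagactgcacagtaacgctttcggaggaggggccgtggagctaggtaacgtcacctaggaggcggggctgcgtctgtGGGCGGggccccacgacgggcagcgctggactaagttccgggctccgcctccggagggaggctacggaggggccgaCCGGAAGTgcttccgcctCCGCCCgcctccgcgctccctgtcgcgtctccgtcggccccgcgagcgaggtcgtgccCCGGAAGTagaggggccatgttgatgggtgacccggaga
Mfn2 (chr4:147904649-147904948, minus strand): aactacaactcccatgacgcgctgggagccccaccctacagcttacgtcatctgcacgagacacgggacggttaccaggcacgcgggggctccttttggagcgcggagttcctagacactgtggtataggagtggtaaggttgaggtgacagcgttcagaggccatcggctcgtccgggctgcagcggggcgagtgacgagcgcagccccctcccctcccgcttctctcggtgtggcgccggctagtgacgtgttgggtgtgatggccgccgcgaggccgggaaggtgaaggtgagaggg
Mfn1 (chr3:32529232-32529531, plus strand): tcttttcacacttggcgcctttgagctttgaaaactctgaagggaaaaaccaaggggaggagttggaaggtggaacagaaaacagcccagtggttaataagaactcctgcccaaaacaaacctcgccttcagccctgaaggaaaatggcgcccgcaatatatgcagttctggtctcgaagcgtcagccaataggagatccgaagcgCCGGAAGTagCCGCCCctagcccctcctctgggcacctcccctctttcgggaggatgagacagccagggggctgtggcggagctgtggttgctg

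These windows differed inside each pair. Mief2 held an E-box 24 bases before the start and 2 GC boxes, and no ETS letters. Mief1 held ETS letters at 65 bases before and at base 12 after the start, with 2 GC boxes. Mfn1 held ETS letters 44 bases before the start and a GC box, and the Mfn2 window held none of the 6, although another of its 3 RefSeq windows held a GC box. None of these matches overlapped another. Among the 10 genes, 9 windows held a GC box, 3 held ETS letters (Mfn1, Fis1 and Mief1), 1 an E-box (Mief2) and 1 the NRF1 core (Opa1, where matches on both strands overlap), and 0 held ERR or CRE letters. Of 32851 RefSeq windows of this length, 35.7% held a GC box, 3.89% ETS letters, 7.15% an E-box, 1.75% the NRF1 core, 0.423% ERR and 1.79% CRE letters. Those windows were not limited to tested genes, as the 10 genes are, and a gene can have several. The shares are thus not a like comparison. GC content was 55.0% for Mief2, 68.7% for Mief1, 64.7% for Mfn2 and 55.3% for Mfn1, with a median of 52.7% over all windows. Among the 10 genes it ran from 49.0% (Mff) to 68.7% (Mief1). The part of GC content in the matches was not tested. A match describes letters only and says nothing about binding.

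Regulators and partners of this machinery were then counted in 6 lists holding 122 genes, of which 106 were tested. Of these, 10 rose and 18 fell, which is 26.4% of them and close to the 27.0% of all genes. The calls numbered 14 if C/D 1 was left out, 15 for C/D 2 and 18 for C/D 3. They numbered 24 for Gel/S 1, 38 for Gel/S 2 and 16 for Gel/S 3. There were 18 with limma on TPM, 30 with DESeq2 and 32 without a filter on low levels. Below, a call that was lost on leaving out a single library is said to be carried by it, with the highest adjusted p obtained on leaving out 1 library. The word names that loss only, since each such fit also has fewer samples. Over all genes tested, 910 rose and 902 fell without C/D 1, against 1532 and 1631 with all libraries. Without Gel/S 2, 1989 rose and 2089 fell. Whether a loss stems from the library or from fewer samples was not tested.

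**Figure D4:**
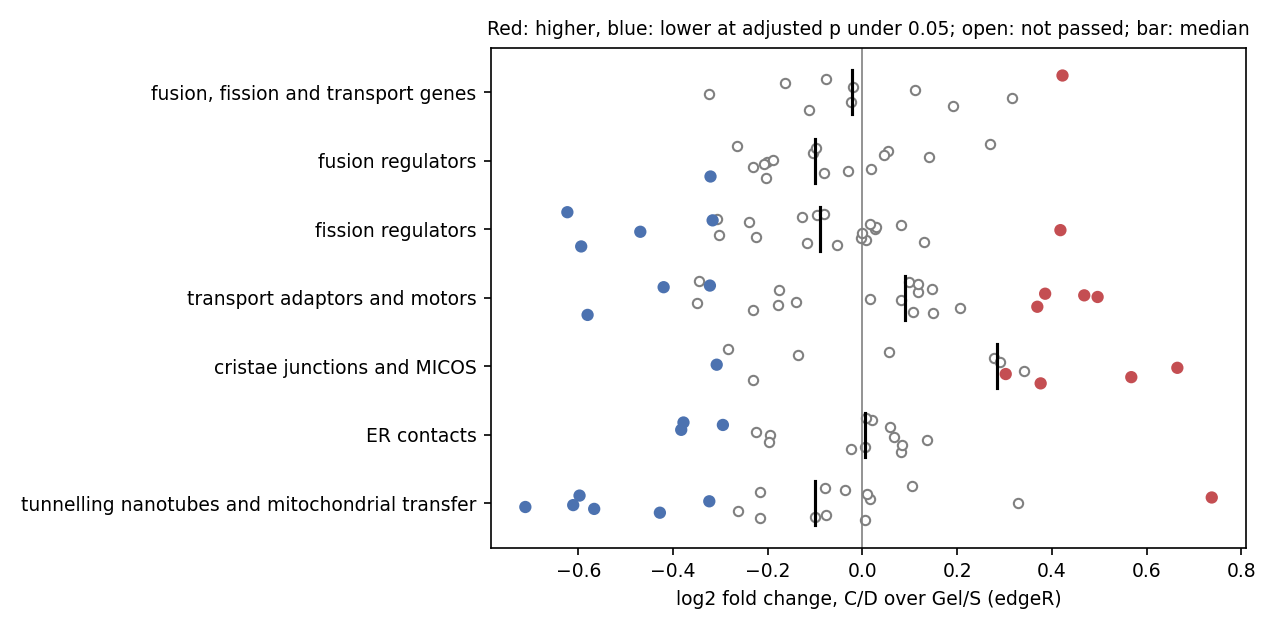
log2 fold change, C/D over Gel/S (horizontal axis, edgeR), of the 10 genes and of the tested members of 6 related lists (rows), with 1 point per gene and a bar at each median. Red and blue points passed an adjusted p of 0.05 as higher and lower in C/D, open points did not pass, and the falls of the nanotube list reach −0.71 (Myo10).

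Among fusion regulators, 0 of 16 rose and 1 fell (6.25% called, against 27.0% of all genes tested). Their median difference was −0.10 on the log2 scale. Prelid1, which shuttles phosphatidic acid between mitochondrial membranes, fell to 117 ± 6.33 FPKM in C/D, against 151 ± 11.2 FPKM in Gel/S (−0.32 on the log2 scale, edgeR adjusted p = 0.0288). That call was lost with the replicate block (0 of 16 fallen) and on leaving out any C/D library or Gel/S 3 (up to 0.127). The prohibitin gene Phb had −0.26 (adjusted p = 0.0586), March5, a ubiquitin ligase of the outer membrane, −0.20 (0.0876), and Opa3 −0.20 (0.0973). Phb and March5 each passed in 5 of 16 alternatives, among them without Gel/S 1, and Opa3 in 0.

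Among fission regulators, 1 of 22 rose and 4 fell (22.7% called, against 27.0% of all genes tested). Their median difference was −0.09. Myh9, a non-muscle myosin heavy chain, fell to 18.1 ± 0.335 FPKM in C/D, against 28.7 ± 3.82 FPKM in Gel/S (−0.62 on the log2 scale, edgeR adjusted p = 0.00145). Ppp3r1, the regulatory subunit of calcineurin, a phosphatase that acts on Dnm1l, fell to 16.9 ± 0.677 FPKM in C/D, against 24.1 ± 2.78 FPKM in Gel/S (−0.47, adjusted p = 0.00451), and both calls held in all 16 alternatives. Senp3, a SUMO protease, fell by 0.32 (adjusted p = 0.0170), a call carried by C/D 2, C/D 3 and Gel/S 3 (up to 0.0847). Pgam5, a mitochondrial phosphatase singled out after its value was seen, fell by 0.59 (adjusted p = 0.0236), a call carried by each C/D library and Gel/S 1 (up to 0.0880) and lost on TPM. Stx17, a SNARE of autophagosomes and of contacts between mitochondria and the endoplasmic reticulum, rose to 9.60 ± 0.366 FPKM in C/D, against 7.40 ± 0.422 FPKM in Gel/S (0.42, adjusted p = 0.00529), in 15 of 16 alternatives (not on TPM, adjusted p = 0.115).

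Among transport adaptors and motors, 4 of 22 rose and 3 fell (31.8% called, against 27.0% of all genes tested). Their median difference was 0.09. Mapk8ip3, a kinesin adaptor, rose to 7.19 ± 0.673 FPKM in C/D, against 5.35 ± 0.318 FPKM in Gel/S (0.47 on the log2 scale, edgeR adjusted p = 0.00469). Dync1h1, the heavy chain of cytoplasmic dynein, rose by 0.39 (adjusted p = 0.0163, carried by C/D 1, C/D 2 and Gel/S 3, up to 0.0789). Mtx3, a metaxin, rose by 0.50 (adjusted p = 0.0116, carried by C/D 2, 0.0667, and lost with limma on log2(FPKM + 1)). Dctn1, the large subunit of dynactin, the partner of dynein, fell to 6.62 ± 0.368 FPKM in C/D, against 10.2 ± 1.97 FPKM in Gel/S (−0.58, adjusted p = 0.00533), in all 16 alternatives. The remaining calls, singled out after their values were seen, were Kif5a (0.37), a kinesin heavy chain, Cluh (−0.32), which binds mRNAs of mitochondrial proteins, and Syap1 (−0.42). Kif5a was carried by C/D 1, C/D 2, Gel/S 1 and Gel/S 3 (up to 0.168), Cluh by each C/D library (0.0794) and Syap1 by C/D 1, C/D 3, Gel/S 1 and Gel/S 3 (0.115). The calls of Kif5a and Syap1 were also lost with the replicate block. Kif5a passed in 7 and Syap1 in 11 of 16 alternatives. That of Kif5a was lost as well with another filter on low levels and with limma on FPKM or TPM, and its groups overlapped in FPKM. On TPM, 0 of the 22 genes rose.

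In the list of cristae junctions and MICOS, the inner membrane complex that holds cristae in shape, 4 of 12 genes rose and 1 fell, and the median difference was 0.28. That made 41.7% called, against 27.0% of all genes tested. The risen genes were Dnajc4 (0.57 on the log2 scale), Apoo (0.38), a MICOS subunit, 2410015M20Rik (0.30), which RefSeq lists under Micos13, and Chchd10 (0.67), the last singled out after its value was seen. Dnajc4 stood at 19.4 ± 3.03 FPKM in C/D, against 13.4 ± 2.40 FPKM in Gel/S (edgeR adjusted p = 0.0232). Its place at cristae junctions rests on how the list was chosen and was not checked. The edgeR adjusted p was 0.0222 for 2410015M20Rik, 0.0477 for Apoo and 0.0489 for Chchd10, and the FPKM groups of Apoo overlapped. Of 16 alternatives, Apoo passed in 5, Chchd10 in 7, 2410015M20Rik in 8 and Dnajc4 in 10. These rises depended on the fit, as 0 genes rose with limma on log2(FPKM + 1) or on TPM and 2 with the replicate block. Leaving out single libraries gave 0 risen genes for C/D 1, 2 for C/D 2, 1 for C/D 3, 2 for Gel/S 1, 7 for Gel/S 2 and 1 for Gel/S 3. Samm50, which inserts proteins into the outer membrane, fell to 11.7 ± 0.677 FPKM in C/D, against 15.0 ± 0.956 FPKM in Gel/S (−0.31, adjusted p = 0.0208), a call carried by C/D 2, C/D 3 and Gel/S 3 (up to 0.106). Of the 7 genes that did not pass, Apool (0.34), Chchd2 (0.29), Minos1 (0.28) and Chchd3 (0.06) stood above 0. Chchd6 (−0.28), Dnajc11 (−0.23) and Immt (−0.14) stood below 0.

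Of genes at contacts with the endoplasmic reticulum, 0 of 15 rose and 3 fell, and the median difference was 0.005. Rmdn3, an outer membrane tether, fell by 0.38 on the log2 scale (edgeR adjusted p = 0.0300), a call carried by C/D 1, C/D 2, Gel/S 1 and Gel/S 3 (up to 0.122). Vdac1, the main channel of the outer membrane, fell by 0.29 (adjusted p = 0.0383), a call lost with the replicate block, on TPM and on leaving out any library but Gel/S 2 (up to 0.146). Itpr3, a calcium channel of the endoplasmic reticulum, had −0.20 (adjusted p = 0.171), with −0.092 without Gel/S 1 and −0.27 without Gel/S 2, where it passed (0.0454). Mfn2, a tether at the same contacts, had the −0.32 given above.

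In the list of tunnelling nanotubes, thin cell bridges through which mitochondria can pass, 1 of 19 rose and 6 fell, and the median difference was −0.10. The share called was 36.8%, against 27.0% of all genes tested. Myo10, a myosin of filopodia, fell to 6.70 ± 0.106 FPKM in C/D, against 11.3 ± 1.85 FPKM in Gel/S (−0.71 on the log2 scale, edgeR adjusted p = 0.00100). Ralb, a small GTPase that acts on the exocyst, fell to 18.0 ± 1.58 FPKM in C/D, against 28.4 ± 2.54 FPKM in Gel/S (−0.61, adjusted p = 0.00127). Myo1c, a class I myosin, fell by 0.60 and Rac1, a GTPase of the actin cytoskeleton, by 0.43, and these 4 calls held in all 16 alternatives. Tnfaip2, whose product drives nanotube formation in macrophages, fell to 49.1 ± 1.06 FPKM in C/D, against 63.3 ± 0.880 FPKM in Gel/S (−0.32, adjusted p = 0.0137), a call carried by C/D 2, C/D 3 and Gel/S 3 (up to 0.0719). Exoc4, an exocyst subunit, fell by 0.57 (adjusted p = 0.0128), a call carried by C/D 1 (0.0633) and lost with limma on TPM or FPKM (up to 0.0636). Lst1, a leukocyte protein linked to nanotubes in human cells, rose to 130 ± 27.3 FPKM in C/D, against 80.1 ± 21.1 FPKM in Gel/S (0.74, adjusted p = 0.0156), a call carried by C/D 1 (0.0850) and lost with limma on TPM or FPKM. Tnfaip2, Exoc4 and Lst1 were singled out after their values were seen. Gja1, a gap junction gene, and Cd38, both linked to mitochondrial transfer in other cells, were too low to be tested.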

How the data were processed

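RNA of RAW264.7 cells was measured in 3 C/D and 3 Gel/S libraries, grouped and numbered by the sample titles. The deposited table holds raw counts per gene made by the authors, per the file headers. Its FPKM values are the authors' counts over the listed gene length and a scaled library total, a scaling that no label states. It also holds the authors' mean scaled counts (a signal, per the file headers), log2 ratios (Gel/S over C/D) with p-values, per the file headers, by a test that no label states. The genome build was GRCm38, per the submitters' processing notes. For the aligner, the counter and strand use: not given in the sources used here. Overlapping or antisense genes thus cannot be told apart.

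Counts of 100 symbols with several entries were summed, 27 symbols turned into dates were restored from gene IDs, and 0 entries lacked a gene. Genes with a mean FPKM of at least 1 were tested with the edgeR 4.0.16 quasi-likelihood test (TMM, R 4.3.3), C/D over Gel/S, with a threshold of 0.05 on p adjusted over all of them. A standard error is the size of the log2 fold change divided by root F. Alternatives used DESeq2 1.42.0, limma 3.58.1 and other filters, scalings and libraries. The pipeline was tested on simulated counts. The 10 genes and the 6 lists were chosen with earlier results of these data known. Named were the 10 genes and, per list, up to 4 tested genes with the smallest p, and the cristae list is given in full. A result that this rule would name is not reported here. Promoter windows span 250 bases before and 50 after a RefSeq start.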

Additional observations from a re-analysis of the deposited data

How the results depend on the processing

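Leaving out each library gave 887 to 1989 risen and 876 to 2089 fallen genes (1532 and 1631 with all), 0 to 3 of the 10 genes risen and 0 to 1 fallen, and 14 to 38 calls in the related lists (28 with all). Risen genes numbered 1020 with limma on log2(FPKM + 1), 1008 on log2(FPKM + 0.1) and 633 (against 1510 fallen) on TPM, where the median of all genes shifted to −0.12, and the related lists gave 18 calls. The share of calls that rose, 48.4%, was 29.5% on TPM. Of the 10 genes, 0 rose and 1 (Mfn2, −0.37) fell without a filter, 0 rose on TPM, and 2 rose after the length correction (Mief2 and Rhot2, 0.36). Mief2 lost its call without a filter (0.37) and on TPM (0.26), and leaving out libraries moved it between 0.35 and 0.47. Over left-out libraries, Mfn2 ranged from −0.44 to −0.18, Fis1 from 0.018 to 0.36 and Rhot2 from 0.24 to 0.41. Rhot2 was 0.17 on TPM. Signs turned only in genes that never passed: Mfn1 (−0.21 to 0.16 over left-out libraries), Mff (0.016 after the length correction, −0.048 to 0.0092 over left-out libraries), Mief1 (−0.020 on TPM) and Rhot1 (0.025 after the length correction, −0.052 to 0.027 over left-out libraries). The cause of these shifts was not tested, and the fits that leave out a library also have fewer samples. Without the genes of the mitochondrial genome, the calls among the 10 genes were as with them. Same-numbered libraries did not deviate together (correlations of −0.06, −0.06 and 0.05), and not every library correlated best with its own number, so the numbers were not taken as pairs. With the replicate block, 1242 genes rose and 1302 fell, 1 of the 10 genes rose (Mief2, 0.42) and 0 fell, and the related lists gave 22 calls. Mief2 had 177 to 233 counts per library and an SE of 0.123, beside a median of 0.117 over all genes tested. The part of depth in its precision was not tested.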
